A study of Mus musculus with 42 samples.

Results

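Transforming growth factor beta (TGF-beta) signalling was followed here through 10 genes in mouse skin and chemically induced skin tumours. They are the ligands Tgfb1, Tgfb2 and Tgfb3, the receptors Tgfbr1 and Tgfbr2, the inhibitory Smad gene Smad7, the inhibitor-of-DNA-binding genes Id1, Id2 and Id3, and Ccn2, which encodes connective tissue growth factor. Members were the probes annotated with one of these symbols, which gave 10 of the 21997 probes on the first array design and 16 of the 36924 probes on the second. Smad7 had no probe of that symbol on either design and is not analysed here. Of the other 9, among 14442 genes with a symbol on the first design, 7 had enough values on the first design to be tested (Tgfb1, Tgfb3, Tgfbr1, Tgfbr2, Id1, Id3 and Ccn2), while Tgfb2, Id2 and the less complete of the 2 Tgfbr2 probes did not pass the filter on empty spots.

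TGF-beta ligands are secreted in a latent form, released in the matrix, and bind the type II receptor Tgfbr2, which recruits and phosphorylates the type I receptor Tgfbr1. The activated receptor phosphorylates Smad2 and Smad3, which enter the nucleus with Smad4, and Smad7 closes the loop as a feedback inhibitor. Bone morphogenetic proteins act through related receptors and Smad1, Smad5 and Smad9, for which the Id genes are classic targets, while Ccn2 is a classic target of TGF-beta in fibroblasts. In epidermis the pathway is known for holding keratinocyte growth in check, and in mouse skin carcinogenesis for opposite roles in early and late tumours.

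The study measured whole-tissue total RNA on 2-colour arrays, each against a universal mouse reference RNA. Its 42 arrays hold normal skin (6), papillomas labelled low risk (10) or high risk (10), squamous cell carcinomas (6) and papillomas labelled only as unknown (10), and the last were hybridised to the second array design. Every tumour came from female Sencar mice initiated at 7 to 8 weeks of age and treated with DMBA/TPA, that is the carcinogen dimethylbenzanthracene followed by the promoting phorbol ester. The labels of the carcinomas add that treatment ran for many weeks. Normal skin was untreated and adult, and its labels give neither strain nor sex, so strain, sex and treatment cannot be told apart from tumour growth in any comparison with normal skin. The labels do not say how risk was assigned, nor whether papillomas that share part of an RNA code came from 1 mouse.

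Levels are log2 ratios of sample to reference, turned by the dyes in the labels and centred on each array's median, so 0 is the median probe of that array. The sample was in Cy3 on every array but 1, a dye-swapped repeat of low-risk papilloma 1, and the pair was averaged to give 31 replicates (6 normal skin, 9 low-risk, 10 high-risk and 6 carcinoma). That the deposited ratio is Cy5 over Cy3 on a log2 scale is likely but unstated, and were it the reverse, every higher and lower below would exchange. Turned this way, the mean level of the 4 keratinocyte marker genes tested was above 0 in every labelled replicate, from 1.18 to 3.88. Between 16286 and 21494 probes had a value on each array of the first design, and the standard deviation (SD) of an array's values ran from 0.45 to 1.95. By replicate, the median SD was 0.94 in normal skin, 1.34 in low-risk papillomas, 1.25 in high-risk papillomas and 0.88 in carcinomas. Ratios were thus less spread in carcinomas and normal skin than in papillomas. The swapped array and its partner correlated at r = 0.31 over 19899 probes, and normal skin 1 and carcinoma 6 at r = 0.98 over 16718. By which spots are empty, the arrays fall into 5 sets, called A to E below, which divide unevenly among the groups: A holds 4 normal skins and 1 high-risk papilloma, B only low-risk papillomas, C 4 high-risk papillomas, 2 carcinomas and 1 normal skin, D all 4 kinds, and E only high-risk papillomas.

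The promoter set used here has no entry for Id1 or Ccn2. Promoter sequences are shown for the ligand that differed between groups, Tgfb1, and for the other 2 Id genes, since Smad proteins act at Id promoters. They are from RefSeq on build GRCm38.p6, 5′ to 3′ on the gene's strand, from 250 bases before to 50 after the annotated start. Capitals mark the letters CAGAC (a Smad-binding element), GGCGCC (a GC-rich Smad element), TGANTCA (an AP-1 site) and GGGCGG (a GC box), searched on both strands.
Tgfb1, chr7:25686752-25687051, plus strand: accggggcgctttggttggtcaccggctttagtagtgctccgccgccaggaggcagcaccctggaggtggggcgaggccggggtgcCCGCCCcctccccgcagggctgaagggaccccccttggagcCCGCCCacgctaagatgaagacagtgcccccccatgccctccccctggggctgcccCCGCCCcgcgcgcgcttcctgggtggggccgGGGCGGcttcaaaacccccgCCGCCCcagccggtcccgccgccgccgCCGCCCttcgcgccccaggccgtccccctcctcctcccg
Id2, chr12:25096043-25096342, minus strand: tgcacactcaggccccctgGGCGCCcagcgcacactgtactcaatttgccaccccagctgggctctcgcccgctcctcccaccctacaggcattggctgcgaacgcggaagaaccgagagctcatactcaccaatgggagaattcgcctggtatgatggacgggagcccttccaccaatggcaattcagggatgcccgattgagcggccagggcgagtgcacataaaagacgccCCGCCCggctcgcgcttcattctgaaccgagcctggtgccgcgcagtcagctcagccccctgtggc
Id3, chr4:136143572-136143871, plus strand: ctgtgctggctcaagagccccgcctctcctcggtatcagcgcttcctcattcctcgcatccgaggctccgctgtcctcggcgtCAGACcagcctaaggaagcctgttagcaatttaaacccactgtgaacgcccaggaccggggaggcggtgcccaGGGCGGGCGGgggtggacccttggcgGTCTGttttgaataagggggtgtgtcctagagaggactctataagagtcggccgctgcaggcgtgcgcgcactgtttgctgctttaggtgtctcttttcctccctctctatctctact
The Tgfb1 window held 6 GC boxes and none of the other motifs, with a GC content of 77% against a median of 52.7% over all 32851 promoters of the same length. The Id2 window held 1 GGCGCC and 1 GC box, and the Id3 window 2 CAGAC matches and 2 GC boxes that overlap each other. Of all promoters, 49.6% hold CAGAC, 11.9% GGCGCC, 7.81% TGANTCA and 35.7% GGGCGG, so a match is a description of these letters and not a site.

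Compared with normal skin, papillomas of both risk groups had more Id1 and Tgfb1 message, and high-risk papillomas had less Ccn2. None of these differences passed with the array set as a block, and the sets divide unevenly among the groups. In low-risk papillomas Id1 was 2.90-fold and Tgfb1 3.53-fold above normal skin. In high-risk papillomas Id1 was 2.39-fold and Tgfb1 3.76-fold above normal skin, and Ccn2 was 2.43-fold below it. No member passed the threshold (limma, Benjamini-Hochberg adjusted p under 0.05 over all 18904 probes tested) in carcinomas against normal skin or between any 2 tumour groups. By count, 2 of the 7 members tested passed in low-risk papillomas against normal skin, where 7.55% of all probes did. Both were higher, as were 3.94% of all probes. In high-risk papillomas against normal skin 3 of 7 passed, where 5.01% of all probes did, 2 of them higher (2.57% of all probes) and 1 lower (2.44%). The members were chosen with earlier results of these data known, so these counts do not test whether the family stands out. In carcinomas against normal skin 1.16% of probes passed, in high-risk against low-risk papillomas 0.667%, in carcinomas against low-risk papillomas 1.12%, and in carcinomas against high-risk papillomas 0.0423%. At an unadjusted limma p under 0.05 there was 1 member of 7 in carcinomas against normal skin, where 11.3% of all probes were, and 1 in high-risk against low-risk papillomas, where 17.3% were, which is near the share of all probes. There were 2 in carcinomas against low-risk papillomas (16.1% of all probes) and 3 in carcinomas against high-risk papillomas (10.5%). Tissue was sampled whole, so fewer cells of a type and less RNA per cell cannot be told apart.

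**Figure D1:**
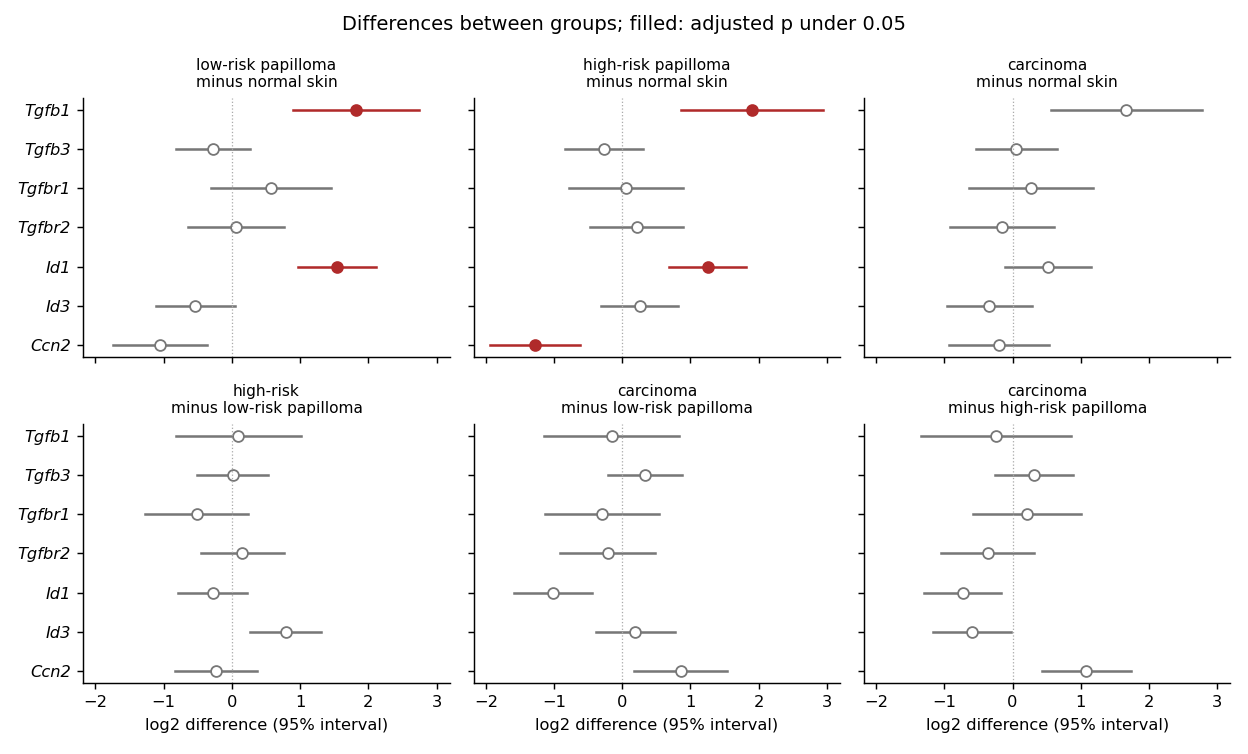
Log2 differences between groups (x axis) of the 7 members tested (rows), with 95% intervals, in the 6 comparisons (panels). Filled red points passed an adjusted p of 0.05: Tgfb1 and Id1 against normal skin in both papilloma groups, and Ccn2 in high-risk papillomas against normal skin.

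Tgfb1 encodes the main TGF-beta ligand of epidermis. Its probe read -0.96, -0.48, -0.43, -0.36 and 0.76 in the 5 normal skins with a value. In low-risk papillomas it ran from -0.42 through a median of 1.62 to 2.83 over 9 tumours. High-risk papillomas read 1.12, 1.52, 1.55, 1.85 and 2.03, and the carcinomas 0.92, 1.19, 1.44 and 1.93. All 5 high-risk papillomas and all 4 carcinomas with a value lay above every normal skin, whereas low-risk papillomas 1 and 2, at -0.29 and -0.42, lay among the normal skins and the other 7 low-risk papillomas lay above them. The probe was empty in all of array set C and in high-risk papilloma 2, which leaves 23 of 31 replicates.

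The Tgfb1 difference from normal skin was 1.82 ± 0.44 (SE, log2, n = 9 and 5, limma adjusted p = 0.0145) in low-risk papillomas and 1.91 ± 0.50 (n = 5 and 5, limma adjusted p = 0.0292) in high-risk papillomas. In carcinomas it was 1.67 ± 0.53 (n = 4 and 5), with a limma adjusted p of 0.151. Groups that did not overlap made up 2.27% of probes in high-risk papillomas against normal skin and 4.01% in carcinomas against normal skin. Among the 3 tumour groups the differences were at most 0.24 in size, each with a 95% interval that spans 0, the widest from -1.35 to 0.86.

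The labels also carry a database number for each array, in a low range that holds 4 normal skins and 3 low-risk papillomas and a middle range that holds nearly all the rest. Within the low range Tgfb1 averaged -0.56 in 4 normal skins and 0.42 in 3 low-risk papillomas, which overlapped. Within the middle range it was 0.76 in the 1 normal skin measured, 2.07 in low-risk papillomas, 1.61 in high-risk papillomas and 1.37 in carcinomas. With this range as a block the difference from normal skin was 1.09 in low-risk papillomas (limma adjusted p = 0.0763) and 0.66 in high-risk papillomas (0.515), and with the array set as a block 1.46 (0.803) and 1.70 (0.341). Both calls were also lost with the swapped array left out (0.0544 and 0.0662) or with the replicate number as a block (0.11 and 0.0596). The low-risk call was lost when only the 2 groups were fitted (0.0637) and without normal skin 5 (0.0504). The high-risk call was lost with the swapped array as a tumour of its own (0.0657) and without any 1 of normal skins 3, 4, 5 and 6 or high-risk papillomas 1 and 4, where the adjusted p was between 0.0517 and 0.0847. On the swapped array Tgfb1 read 0.79, and on its partner -1.37.

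**Figure D2:**
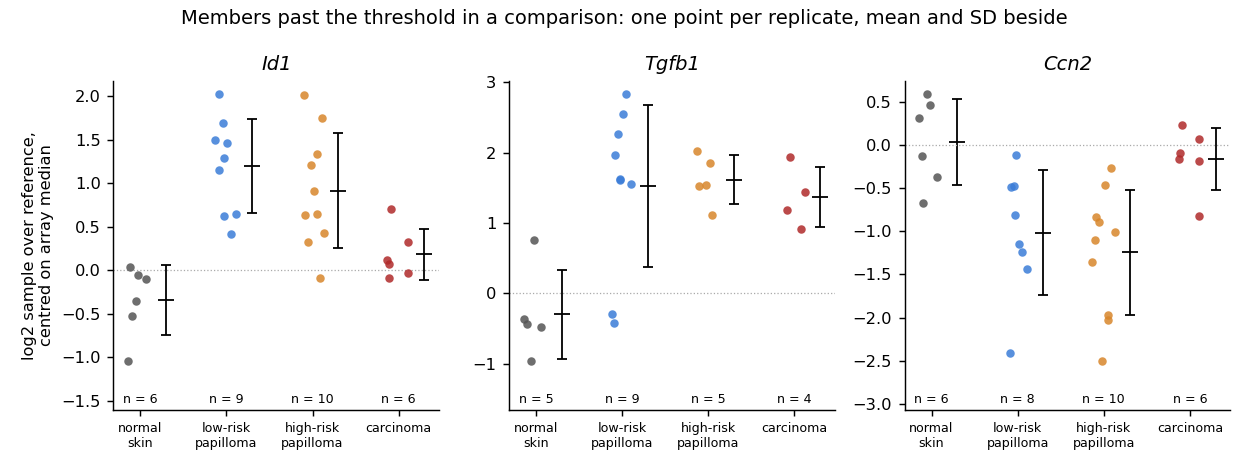
Levels of Id1, Tgfb1 and Ccn2 (y axis, log2 sample over reference centred on the array median) in the 4 labelled groups (x axis), 1 point per replicate, with the mean and SD beside the points and n below them. Id1 in the 9 low-risk papillomas, from 0.42 to 2.02, lies above all 6 normal skins, and Ccn2 is lower in high-risk papillomas than the mean of normal skin in 10 of 10 tumours.

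Neither of the other ligands passed the test in any comparison. Tgfb3, an isoform known from wound healing and palate closure, had medians of -0.31 in normal skin, -0.75 in low-risk papillomas, -0.68 in high-risk papillomas and -0.27 in carcinomas. Its groups overlapped in all 6 comparisons, and its differences lay between -0.28 and 0.33 with unadjusted limma p of 0.22 or more. Low-risk papillomas were the most spread, with an SD of 0.73 (n = 9) against 0.29 to 0.31 in the other groups. Tgfb2 had values in 5 normal skins (-0.33 to 0.97), 6 low-risk papillomas (0.32 to 1.11), 8 high-risk papillomas (-0.09 to 0.79) and 2 carcinomas (0.67 and 1.41). It was tested only under the looser filter of 2 values per group, where its limma adjusted p was 0.338 or more in each comparison.

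Neither receptor passed the test in any comparison. Tgfbr1, the type I receptor that carries the signal to the Smads, ran from -0.30 to 0.94 in normal skin, -0.46 to 1.79 in low-risk papillomas, -1.21 to 1.30 in high-risk papillomas and -0.09 to 1.96 in carcinomas. Its largest difference in size, 0.57 ± 0.43 (SE, log2, n = 7 and 5) in low-risk papillomas above normal skin, had a limma adjusted p of 0.448. Tgfbr2, the ligand-binding type II receptor, ran from -0.32 to 0.58 in normal skin, -1.38 to 1.51 in low-risk papillomas, -0.76 to 1.55 in high-risk papillomas and -0.69 to 0.55 in carcinomas. All of its differences were at most 0.37 in size, and the 95% interval of each reached no further than -1.05 or 0.90. The less complete Tgfbr2 probe had medians of -0.14, 0.45, 0.50 and 0.28 in the same order of groups, over 5, 5, 6 and 3 replicates. For both receptor genes every group overlapped every other, and the 95% intervals of the Tgfbr1 differences reached from -1.27 to 1.45.

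**Figure D3:**
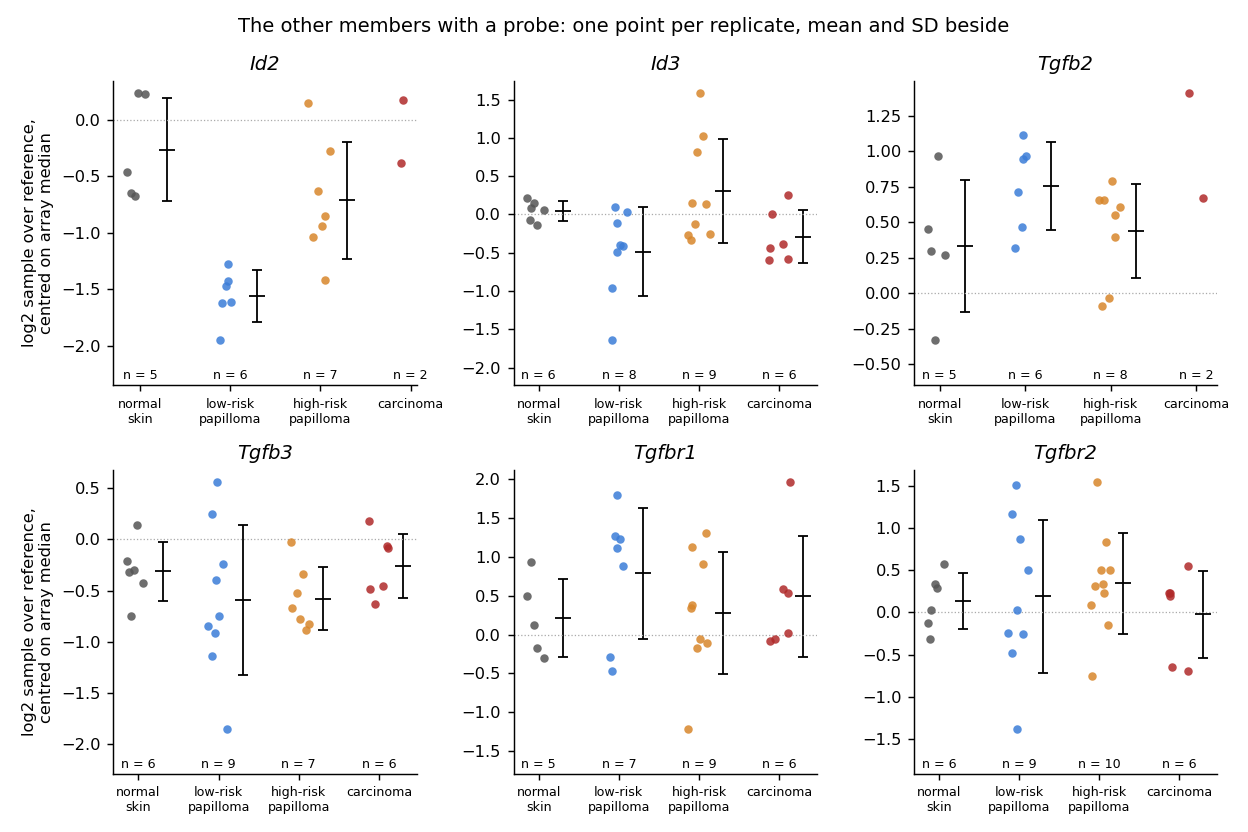
Levels (y axis, log2 sample over reference centred on the array median) of the 6 other members with a probe in the 4 groups (x axis), 1 point per replicate, with the mean and SD where a group has more than 2 values. Id2 lies lowest in low-risk papillomas, from -1.95 to -1.27, and Tgfb3 and both receptors overlap in every pair of groups.

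Id proteins lack a DNA-binding domain and hold back basic helix-loop-helix factors, which keeps cells from differentiating. Id1 had a value in every replicate. It ran from -1.05 through a median of -0.22 to 0.04 in normal skin and from 0.42 through 1.29 to 2.02 in low-risk papillomas. High-risk papillomas ran from -0.09 through 0.78 to 2.01, and carcinomas from -0.09 through 0.09 to 0.71. The 9 low-risk papillomas lay above all 6 normal skins, which only 1.82% of probes did in one direction or the other, and the high-risk papillomas overlapped normal skin through a single tumour at -0.09. All 6 carcinomas lay below the mean of either papilloma group and above the mean of normal skin. The share of all probes with this pattern was not counted, and the part of the smaller spread of carcinoma arrays in it was not tested.

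Id1 differed from normal skin by 1.54 ± 0.28 (SE, log2, n = 9 and 6, limma adjusted p = 0.00116) in low-risk papillomas and by 1.25 ± 0.28 (n = 10 and 6, limma adjusted p = 0.00778) in high-risk papillomas. In carcinomas the difference from normal skin was 0.52 ± 0.31 (limma adjusted p = 0.582). Carcinomas minus low-risk papillomas gave -1.02 ± 0.28 with a limma adjusted p of 0.0632, and carcinomas minus high-risk papillomas -0.73 ± 0.28 with 0.345. The first of these passed without any 1 of low-risk papillomas 6, 7 and 9 or high-risk papilloma 4 (adjusted p from 0.0297 to 0.0497), with array weights (0.0268), and over the probes measured in every replicate (0.0426).

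Within array set A, the 1 high-risk papilloma read 1.75 for Id1 and the 4 normal skins at most 0.04. Within set D, Id1 was -0.10 in the 1 normal skin, 0.42 to 1.49 in 3 low-risk papillomas, 0.64 in 1 high-risk papilloma and 0.07 to 0.71 in 4 carcinomas. Within set C, 4 high-risk papillomas ran from -0.09 to 0.65 beside -0.06 in 1 normal skin, and the 4 high-risk papillomas of set E ran from 0.90 to 2.01. The high-risk papillomas of sets C and E thus did not overlap in Id1. The SD of all values was 0.45 to 0.78 on these arrays of set C and 1.51 to 1.72 on those of set E. The part of this spread in the Id1 difference was not tested, and the share of all probes that separate these sets was not counted. With the array set as a block the differences from normal skin were 1.16 in low-risk papillomas (limma adjusted p = 0.593) and 1.17 in high-risk papillomas (0.142). With the database range as a block they were 1.47 (0.00454) and 1.18 (0.103), and within the low range the 3 low-risk papillomas, at 0.64 to 1.69, lay above the 4 normal skins. The share of all probes that separate within an array set or the low range was not counted either.

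**Figure D4:**
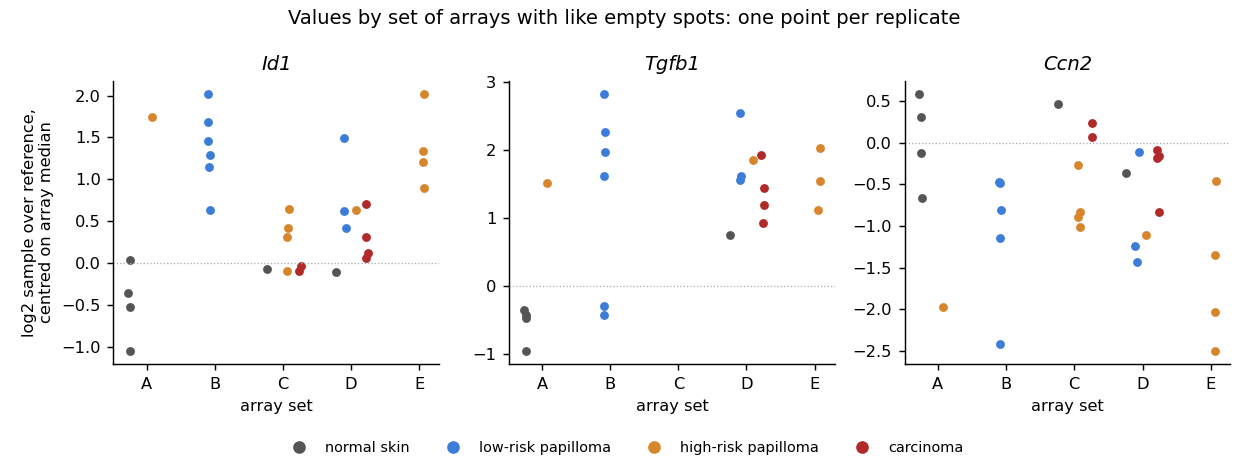
Levels of Id1, Tgfb1 and Ccn2 (y axis, log2 sample over reference centred on the array median) by array set (x axis, A to E), 1 point per replicate coloured by group. Ccn2 in high-risk papillomas lies below the normal skins of the same set in A, C and D and below the carcinomas in C and D. Tgfb1 has no value in set C.

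The Id2 probe was empty in all 9 replicates of set D and in 2 others, so it was measured in 20 replicates. Normal skins read -0.67, -0.65, -0.46, 0.23 and 0.23, and the 6 low-risk papillomas ran from -1.95 to -1.27 around a median of -1.54. High-risk papillomas ran from -1.41 through -0.85 to 0.15 over 7 tumours, and the 2 carcinomas read -0.38 and 0.17. Low-risk papillomas lay below every sample of normal skin and both carcinomas, and only 1 high-risk papilloma reached into their range. Among the probes that passed the main filter, which leaves out Id2, 1.82% did not overlap between low-risk papillomas and normal skin. Such a share was not counted against carcinomas. Under the filter of 2 values per group, Id2 in low-risk papillomas was 1.30 ± 0.28 (SE, log2, n = 6 and 5) below normal skin with a limma adjusted p of 0.00807, opposite in sign to Id1 in the same tumours. All 6 of these low-risk papillomas are on arrays of set B, which holds no other group.

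Id3 stayed near 0 in normal skin, from -0.13 through 0.07 to 0.21. In low-risk papillomas it ran from -1.64 through -0.41 to 0.10, in high-risk papillomas from -0.34 through 0.14 to 1.58, and in carcinomas from -0.60 through -0.42 to 0.26. High-risk papillomas exceeded low-risk ones by 0.79 ± 0.26 (SE, log2, n = 9 and 8, limma adjusted p = 0.121), and 9 of 9 lay above the low-risk mean. The highest values, 1.02, 0.82 and 1.58 in high-risk papillomas 2, 3 and 4, are all on arrays of set E, and the other 6 lay between -0.34 and 0.15. With the array set as a block the difference was 0.16 (limma adjusted p = 1.0).

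Ccn2 encodes a secreted matricellular protein linked to matrix production. Its probe ran from -0.67 through 0.10 to 0.59 in normal skin, from -2.42 through -0.98 to -0.11 in 8 low-risk papillomas, from -2.51 through -1.06 to -0.26 in 10 high-risk papillomas, and from -0.83 through -0.12 to 0.24 in carcinomas. None of the 18 papillomas had a value above 0, and the groups overlapped at their edges. High-risk papillomas were 1.28 ± 0.32 (SE, log2, n = 10 and 6) below normal skin with a limma adjusted p of 0.0188. Low-risk papillomas were 1.05 ± 0.34 below it with a limma adjusted p of 0.0508, just outside the threshold. Carcinomas minus normal skin gave -0.19 with a 95% interval from -0.93 to 0.54. Carcinomas minus high-risk papillomas gave 1.08 ± 0.32 (limma p = 0.0021, adjusted p = 0.215), and carcinomas minus low-risk papillomas 0.86 ± 0.34 (adjusted p = 0.194).

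High-risk papillomas lay below normal skin in Ccn2 within each array set that holds both. The values were -1.97 against at least -0.67 in 4 normal skins in set A, -1.01 to -0.26 against 0.46 in set C, and -1.10 against -0.37 in set D. These rest on 1 high-risk papilloma in sets A and D and on 1 normal skin in sets C and D. The share of all probes that separate in this way was not counted. The carcinomas of sets C and D, at 0.07 to 0.24 and -0.83 to -0.09, also lay above the high-risk papillomas of the same set. Set C includes normal skin 1 and carcinoma 6, the near-identical pair of arrays. With the array set as a block the high-risk difference from normal skin was -1.38 (limma adjusted p = 0.158), with the database range -1.60 (0.0702), with the swapped array as its own tumour -1.28 (0.102), and without normal skin 3 or 4 the adjusted p was 0.0541 or 0.0605. The low-risk value passed with no centring (0.048), quantile normalization (0.035), the database range as a block (0.0448), array weights (0.00229), and without any 1 of normal skin 5, low-risk papillomas 2, 6, 8 and 9 and high-risk papillomas 2, 3, 4, 7 and 10. Low-risk papilloma 1 read -0.32 on the first of its arrays and -4.52 on the dye-swapped one, and their mean is the lowest low-risk value.

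Markers of smooth muscle and pericytes had group medians in the same order as Ccn2. They were -0.38 in normal skin, -0.86 in carcinomas, -1.46 in low-risk and -1.53 in high-risk papillomas. Skeletal muscle markers also had normal skin (1.06) and carcinomas (0.39) first, then high-risk (0.17) and low-risk papillomas (-0.26). The other marker lists had other orders. The mean level of the 6 smooth muscle and pericyte genes (Acta2, Myh11, Tagln, Cnn1, Rgs5 and Des) ran from -1.14 to -0.10 in normal skin, -2.29 to -1.04 in low-risk papillomas, -2.25 to -0.05 in high-risk papillomas and -1.12 to -0.14 in carcinomas. Of the 6, Acta2, smooth muscle actin, fell by 2.67 in low-risk papillomas (limma adjusted p = 0.0039) and by 1.94 in high-risk papillomas (0.0337), and the other 5 did not pass. Of the settings run, the first was lost only with the array set as a block, and the second in 5 of 16 alternatives and 7 of 31 fits without 1 replicate. Of 6 fibroblast genes none passed in any comparison with normal skin, and their mean level ran from -1.53 to -0.76 in normal skin, -2.18 to 0.22 in low-risk papillomas, -1.42 to 0.27 in high-risk papillomas and -0.84 to 0.24 in carcinomas. Of 6 endothelial genes Pecam1 fell by 1.07 in low-risk papillomas (limma adjusted p = 0.0491), a call lost in 7 of 16 alternatives and 25 of 31 fits without 1 replicate. The 4 keratinocyte genes tested did not pass in any comparison. For Tgfb1, which platelets store, the platelet marker Ppbp was higher than in normal skin by 0.90 in low-risk and 1.55 in high-risk papillomas and by 3.57 in carcinomas (limma adjusted p of 0.0445, 0.00408 and 2e-06), and in carcinomas it was also above low-risk papillomas (2.67) and high-risk papillomas (2.02), while the other 3 platelet genes tested did not pass in any comparison with normal skin. Against normal skin those 3 ran between -0.35 and 1.03, with the Gp9 difference within 0.05 of 0 in each comparison and that of Itga2b at -0.15, 0.03 and -0.35 in the same order of groups. The low-risk Ppbp difference no longer passed, or was not tested, in 8 of 16 alternatives and 15 of 31 fits without 1 replicate. For high-risk papillomas against normal skin this held in 3 alternatives and 0 such fits. For carcinomas against high-risk papillomas it held in 3 and 4, and against normal skin or low-risk papillomas in 1 and 0. The mean level of the 4 platelet genes ran from -0.61 to 0.15 in normal skin, -0.62 to 0.43 in low-risk papillomas, -0.39 to 0.87 in high-risk papillomas and -0.27 to 1.23 in carcinomas. Of 5 T cell genes tested, Cd2 was higher by 3.28 and Cd3e and Cd8a were lower, at -1.04 and -1.21, in low-risk papillomas than in normal skin (limma). The part of these cell types in the Tgfb1, Id1 and Ccn2 differences was not tested.

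The other genes of the pathway were taken from a list. Of 63 listed genes 57 had a probe and 52 were tested, and no comparison had more than 2 past the threshold. In low-risk papillomas against normal skin 1 of the 52 rose and 1 fell, beside 7.55% of all probes that passed. In high-risk papillomas against normal skin 1 fell, beside 5.01%, and between the papilloma groups 1 passed, beside 0.667%. Pmepa1, a TGF-beta-induced gene whose product restrains Smad signalling, ran from 0.18 to 1.23 in normal skin and 0.34 to 2.49 in low-risk papillomas, and was 1.03 ± 0.28 (SE, log2, n = 9 and 6, limma adjusted p = 0.0228) higher. Nedd4l, a ubiquitin ligase that targets active Smad2 and Smad3, was 1.28 ± 0.30 lower (n = 7 and 6, limma adjusted p = 0.0084). Nedd4l was also the 1 pathway gene that passed between the papilloma groups, 1.07 ± 0.26 higher in high-risk than in low-risk papillomas (n = 10 and 7, limma adjusted p = 0.0491). On arrays of set B stand 6 of the low-risk papillomas, and with the array set as a block both Nedd4l differences turned sign, to 0.08 against normal skin and -0.32 between the papilloma groups. The call between the papilloma groups was also lost with scale or quantile normalization, without the swapped array, with the database range or replicate number as a block, with only the 2 groups fitted, without the near-identical pair, and in 25 of the 31 fits that left out 1 replicate, up to an adjusted p of 0.103. The Nedd4l call against normal skin was lost with only the 2 groups fitted (0.0885). The Pmepa1 call was lost with scale or quantile normalization (0.213 and 0.244), the array set or database range as a block (0.934 and 0.0734), only the 2 groups fitted (0.106), and without normal skin 3 or 5 (0.0712 and 0.0648). Nedd4l values ran high in normal skin (0.31 ± 0.25, SD, n = 6), low in low-risk papillomas (-0.96 ± 0.97, n = 7), and between them in high-risk papillomas (0.11 ± 0.29, n = 10) and carcinomas (-0.11 ± 0.20, n = 6).

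Dcn, which encodes the TGF-beta-binding proteoglycan decorin, ran from -2.05 to -0.99 in normal skin and from -10.1 to -2.67 in high-risk papillomas. In high-risk papillomas it was 3.49 ± 0.97 lower (SE, log2, n = 6 and 5, limma adjusted p = 0.036). The groups did not overlap, as for 2.27% of all probes tested. The call was lost with scale or quantile normalization (0.0593 and 0.0735), the array set or database range as a block (0.531 and 0.312), only the 2 groups fitted (0.0719), and without any 1 of normal skins 2 to 6 or high-risk papillomas 2 and 3 (0.0545 to 0.0864). Of the 7 Smad genes none passed. Smad4, the common partner of both branches, was 0.53 ± 0.54 (SD, n = 6) in carcinomas, -0.24 ± 0.51 (n = 9) in low-risk and -0.40 ± 0.48 (n = 10) in high-risk papillomas, with limma adjusted p of 0.122 and 0.17. No pathway gene passed in the 3 comparisons with carcinomas. Those with the smallest p were Pmepa1 (-1.02, adjusted p = 0.0632), Smad4 and Nedd4l (0.86, 0.14) against low-risk papillomas, Smad4, Dcn (3.04, 0.298) and the Smad corepressor Ski (0.85, 0.342) against high-risk papillomas, and the integrin subunit Itgav (1.96, 0.212), Sostdc1 (0.89, 0.361) and Tsc22d1 (-0.94, 0.445) against normal skin. The median difference of the 52 genes lay between -0.03 and 0.11 in the 6 comparisons, and that of all probes tested between -0.02 and 0.02.

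Across the labelled replicates the members did not follow one another closely. Of 21 pairs of tested members, the strongest positive r was 0.54 (Tgfb1 with Id1, n = 23) and the strongest negative -0.62 (Tgfbr1 with Id3, n = 25). With group means removed these became 0.01 and -0.58, and Id1 with Ccn2 went from -0.55 to -0.14 (n = 30). These points share arrays, the reference and the group structure, and are given as a description. By the same measure, over probes that share at least 25 replicates, the genes most like Id1 were Esrp2 (r = 0.87, n = 30), 2010204K13Rik (0.86, n = 30) and Mrpl46 (0.86, n = 31). Those most like Ccn2 were Mx2 (0.81, n = 29), Scd1 (0.77, n = 30) and Wbp2 (0.75, n = 30). For Tgfb3 they were Mknk1 (0.87), Gpbp1l1 (0.83) and Nodal (0.81), for Tgfbr1 Ckap5 (0.80), Prg2 (0.80) and Ankrd24 (0.79), for Tgfbr2 Vac14 (0.89), Tmem185b (0.85) and Rbm5 (0.84), and for Id3 Kdm3b (0.85), Aup1 (0.84) and Grm5 (0.84). Of these 18 genes 6 stayed among the 3 most like under scale normalization, none of them for Id1 or Tgfb3, and 10 with group means removed, none of them for Id3 or Ccn2. Under scale normalization those of Id1 were Bcl2, H2az1 and Pax4, and with group means removed those of Ccn2 were Aldh1a7, Fech and Apol6. Tgfb1, with 23 values, could not be ranked.

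The 10 papillomas labelled unknown were measured with other probes against the same kind of reference, so their levels are given as such and not set against the labelled groups in a test. Id1 was above 0 in all of them, from 0.51 through a median of 0.95 to 8.15 on 1 probe and from 0.73 through 1.26 to 1.62 in 9 tumours on the other. The 2 probes differed by a median of 0.27, and by 6.89 in the tumour with the extreme value. Id2 was below 0 in all 10, from -2.16 through -1.64 to -0.36, and Ccn2 was below 0 in 7 of 10, from -2.04 through -0.97 to 0.27. Id3 ran from -0.85 through 0.67 to 2.89.

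Of the ligands in these 10 tumours, Tgfb1 ran from -1.62 through 0.36 to 1.19 and was above 0 in 7, and Tgfb3 ran from -2.19 through 0.13 to 0.64. The 2 Tgfb2 probes had medians of 0.33 and 0.14. The receptor probes disagreed with each other. The 3 Tgfbr1 probes had medians of 0.80, -1.14 and -0.13, and the second of them was below 0 in all 10 tumours, down to -8.27. The 4 Tgfbr2 probes had medians of -0.12, -0.61, 0.55 and -0.85. For these 2 genes no single level can be given on the second design.

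**Figure D5:**
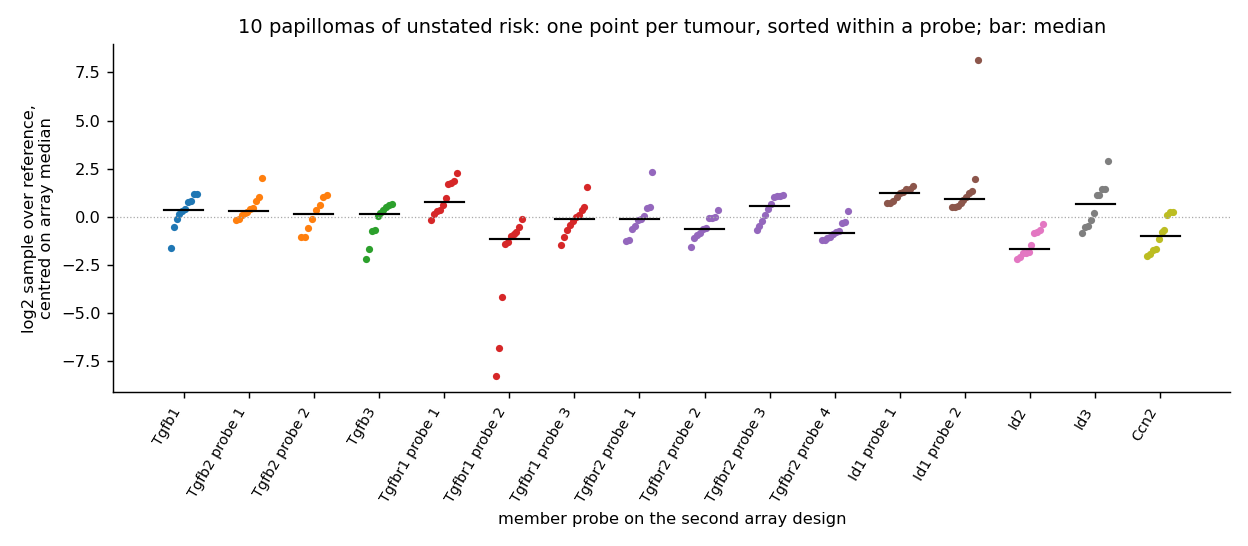
Levels (y axis, log2 sample over reference centred on the array median) of the 16 member probes of the second array design (x axis) in the 10 papillomas of unstated risk, 1 point per tumour, sorted within each probe, with a bar at the median. Both Id1 probes lie above 0 and Id2 below 0 in every tumour with a value, and the Tgfbr1 and Tgfbr2 probes differ among themselves.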

How the data were processed

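The authors deposited 1 log2 ratio per probe and array; the labels give the dyes and the reference, and background correction, normalization and spot filters are not given in the sources used here. Log base 2 was inferred from the range of the values, and the direction Cy5 over Cy3 was taken as likely, so scale and direction stay unstated. Array medians before centring lay between -0.32 and 0.28. Signs were turned by the dye of the sample, each array was centred on its median, and the 2 arrays of 1 RNA were averaged. The 2 designs were treated as separate tables, since they carry different probes. Symbols came from the platform annotation (16076 probes of the first design with 1 symbol, 288 with several and 5633 with none, against 26926, 203 and 9795 on the second), and the probe with most values stood for a gene.

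Probes with at least 3 values per group and values in 70% of replicates (18904) entered 1 limma 3.58.1 model of the 4 groups in R 4.3.3 (lmFit and eBayes), with Benjamini-Hochberg adjustment over all of them and a threshold of 0.05. With a block, each comparison was fitted as its own coefficient, which keeps standard errors exact where values are missing. The fit was tested on simulated data. A log2 change of 1 was recovered for 7% of changed probes in carcinomas against normal skin, the lowest share. The highest was 26.5%, in high-risk against low-risk papillomas. For a change of 2 the shares in these comparisons were 76.5% and 89%. A real log2 difference of 1 would thus often not pass. No label says that samples of a group came from separate animals, so p-values measure only the spread between these samples. All 9 members with a probe are described, of the pathway genes those past the threshold and the 3 of smallest p where none passed, and for likeness the 3 genes of highest Pearson r. The members and gene lists were chosen with earlier results of these data known. Alternatives covered scaling, filters, probes, the swapped array, blocks, the variance model and leaving out replicates. On arrays the number of replicates limits the precision.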

Additional observations from a re-analysis of the deposited data

Results flagged for a closer look

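Among the carcinomas, Tgfbr1 read 1.96 in carcinoma 1, the highest value of the group, and between -0.09 and 0.58 in the other 5. The gap to the next carcinoma was 0.673 of the whole range of the group, above the critical value of 0.625 for 6 samples. It was the 1 such value among 37 groups of member values tested, and chance gives about 1 in 20 groups.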

How the results depend on the processing

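Of 42 member differences, 13 were followed under 16 alternatives and 31 fits that left out 1 replicate. They were those with an unadjusted limma p under 0.05, or past the threshold in the main fit or any other. None of the 13, the 5 past the threshold included, turned direction. Of the other 29, 19 turned in at least 1 alternative. The 13 were picked for their strength, so their kept direction is no separate support. The shared tumour code as a random block changed no member call. The count of members past the threshold in low-risk papillomas against normal skin was 2, and it was 1 over the probes measured in every replicate, with the swapped array left out, with the replicate block and with only the 2 groups fitted, and 0 with the array set block (2 to 3 with 1 replicate left out). In high-risk papillomas against normal skin it was 3, and 1 over the probes measured in every replicate and with the swapped array as its own tumour, and 0 with the array set or database number as a block (1 to 3 with 1 replicate left out, 1 without normal skin 3 or 4). In carcinomas against low-risk papillomas it was 0, and 1 over the probes measured in every replicate and 2 with array weights (0 to 1 with 1 replicate left out). In carcinomas against high-risk papillomas it was 0, and 1 with scale or quantile normalization, for Ccn2 (adjusted p of 0.0491 and 0.0474). In carcinomas against normal skin it was 0, and 1 with scale normalization, quantile normalization, only the 2 groups fitted or array weights, each time Tgfb1 (adjusted p of 0.0295, 0.0126, 0.0288 and 1.6e-04). The probes measured in every replicate leave out Tgfb1 and Ccn2, which lowers both counts against normal skin, and in carcinomas against low-risk papillomas Id1 passed there (0.0426) with the same difference among 5583 probes. The cause of the other changes was not tested.

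Over all probes the counts past the threshold were 126 in high-risk against low-risk papillomas, 212 in carcinomas against low-risk papillomas, 8 in carcinomas against high-risk papillomas, and, against normal skin, 1427 in low-risk and 948 in high-risk papillomas and 219 in carcinomas. In that order the counts were 0, 1, 0, 2, 12 and 10 with the array set block and 1250, 1546, 373, 4150, 3961 and 3454 with array weights. Scale normalization gave 37 in high-risk against low-risk papillomas, 116 and 70 in carcinomas against low-risk and high-risk papillomas, and 1572 and 715 in high-risk papillomas and carcinomas against normal skin. Quantile normalization gave 65, 95, 1794 and 890 in the same comparisons other than carcinomas against low-risk papillomas, and the database number block 51, 27, 70 and 19 in those 4. The probes measured in every replicate gave 0 in carcinomas against high-risk papillomas and 604, 481 and 101 against normal skin. With only the 2 groups fitted there were 0 in high-risk against low-risk papillomas, 1 in carcinomas against high-risk papillomas, and 602 in low-risk papillomas and 691 in carcinomas against normal skin. The robust fit gave 5 in carcinomas against high-risk papillomas, and leaving out the near-identical pair 488 in carcinomas against normal skin. With 1 replicate left out the counts ran from 60 to 718, 51 to 739, 0 to 30, 740 to 1981, 362 to 1409 and 70 to 549. Of probes past the threshold 31.6% were higher in carcinomas than in low-risk papillomas, and 41.9%, 42.2% and 48.9% with no centring, scale and quantile normalization. Against normal skin 21.9% were higher in carcinomas, and 38.3% and 41.1% with scale and quantile normalization, while against high-risk papillomas the share went from 50% to 61.1% with quantile normalization.

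Replicate numbers did not pair the samples: same-numbered replicates of different groups had a median correlation of -0.01 over 37 pairs, and differently numbered ones 0.01 over 317. With the replicate block the counts over all probes were 34 in high-risk against low-risk papillomas and 936 in low-risk papillomas against normal skin.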

Other observations

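Single marker genes of muscle, fat and T cells passed the test as well. Acta1, skeletal muscle actin, was 4.24 lower in low-risk papillomas (log2, n = 9 and 5, limma adjusted p = 0.004) and 3.30 lower in high-risk papillomas (n = 9 and 5, adjusted p = 0.0273) than in normal skin, and the other 4 skeletal muscle genes tested did not pass. Lep, the fat hormone leptin, was 0.90 lower in high-risk papillomas (n = 8 and 6, limma adjusted p = 0.0075) and 0.89 lower in carcinomas (n = 6 and 6, adjusted p = 0.0296), and Fabp4, a fatty acid carrier of adipocytes, was 2.38 higher in low-risk papillomas (n = 9 and 6, adjusted p = 0.0174). The other 2 adipocyte genes tested, Adipoq and Cidec, did not pass and pointed opposite ways in carcinomas, at 2.09 and -1.34 against normal skin. None of the 4 macrophage genes tested passed in any of the 6 comparisons. Cd2 was also higher in high-risk papillomas than in normal skin, by 1.60 (n = 10 and 6, limma adjusted p = 0.0309), and -1.67 in high-risk minus low-risk papillomas (n = 10 and 9, adjusted p = 0.04). Of these 7 calls, each was lost or not tested in 2 to 5 of 16 alternatives, the array set block among them, and in 0 to 13 of 31 fits that left out 1 replicate.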
